A study of Mus musculus with 15 samples.

Results

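The effect of tamoxifen (TAM) on mutant muscle was read from the 7 libraries of *Mtm1*-deficient mice among the 15 libraries of the series, as 3 treated (*Mtm1*-/y + TAM) against 4 untreated (*Mtm1*-/y) animals. Members were taken by genotype and treatment label alone, and all expressed genes were described. All 7 mice were males of the 129Pas strain aged 7 weeks with the *Mtm1*-/y genotype, so treated and untreated animals shared the mutation and differed by label only in tamoxifen. RNA came from the tibialis anterior, a fast muscle of the lower leg, and was sequenced as poly(A) libraries. The remaining 8 libraries (WT, n = 4, and WT + TAM, n = 4) entered the same fit and served as the reference genotype. The sources used here do not state the dose, route or duration of tamoxifen, or whether untreated animals received a vehicle.

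Myotubularin, the product of the X-linked *Mtm1*, removes a phosphate from phosphoinositides on endosomal membranes. Its loss causes X-linked myotubular myopathy, a severe congenital muscle disease with small fibres, misplaced nuclei and disorganised triads, the membrane contacts where excitation releases calcium. Tamoxifen is a selective oestrogen receptor modulator that acts as agonist or antagonist depending on the tissue, and it also binds enzymes of sterol synthesis.

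The genotype label was checked on *Mtm1* itself. It was at 3.61, 3.63, 3.27 and 2.91 CPM (read counts scaled for sequencing depth with TMM library factors) in the untreated mutants, at 3.71, 3.04 and 3.70 CPM in the treated ones, and at 15.3 ± 0.294 CPM (SD, n = 4) in WT. The mutant libraries all lay below WT, and the tamoxifen difference of *Mtm1* between the mutant groups was a log2 fold change (log2FC) of 0.05 ± 0.13 (SE). The tissue label was checked on 10 skeletal muscle fibre markers, whose summed level was between 150000 and 199000 CPM in every mutant library. The total counts were 18042558 to 41410325, so that a single count stood for 0.0241 to 0.0554 CPM before TMM scaling, and 2824 of the 30672 genes had no count in any mutant library. No pair of libraries was identical. Nothing in the labels names litters, batches or days, so p-values measure the spread between these animals as sampled.

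Untreated replicate 1 stood apart from the other 6 mutant libraries, and the call counts, the named genes' log2FC and the list medians were therefore also computed without it. On the first principal component (45.2% of the variance of log2 CPM) it scored 75.1, whereas the others lay between -31.2 and 7.74. Its root mean square log2 distance was 0.715 to 0.808 to the other untreated libraries and 0.753 to 0.88 to the treated ones. Among the other 6 libraries, distances were 0.424 to 0.555 within the untreated, 0.461 to 0.534 within the treated and 0.432 to 0.583 between the groups, with medians of 0.533, 0.465 and 0.48, so that the range between the groups overlapped both ranges within a group. In replicate 1, 2019 genes were over 2-fold from the mean of the rest of its group (845 above and 1174 below), against 423 to 784 in each of the other libraries. The biological coefficient of variation was 26.8% in the 4 untreated libraries, 17.3% without replicate 1 and 14.7% in the treated group.

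**Figure D1:**
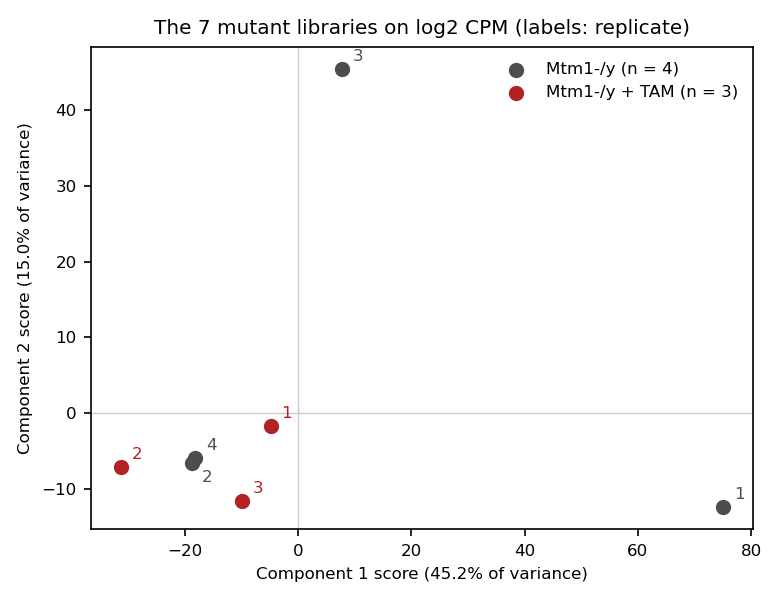
Principal components of log2 CPM over the 7 mutant libraries, with component 1 on the horizontal and component 2 on the vertical axis (scores, with the share of variance), grey points for untreated and red points for treated mice, numbered by replicate. Untreated replicate 1 sits alone at 75.1 on component 1 and untreated replicate 3 alone at 45.4 on component 2, while the 3 treated points lie near untreated replicates 2 and 4.

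Across the 15533 genes that passed the count filter, tamoxifen changed 2 genes in mutant muscle at an adjusted P value under 0.05 (edgeR quasi-likelihood test), *Lamb3* and *Cyfip2*, and both rose. This was 0.0129% of the genes tested. On leaving out each of the 7 libraries in turn, *Lamb3* was called in 4 of the refits and *Cyfip2* in 0. No gene was called without untreated replicate 3 or without treated replicate 2 or 3, and *Lamb3* alone without untreated replicate 2 or treated replicate 1. An unadjusted p under 0.05 was reached by 861 genes (5.54%), 411 higher and 450 lower. With upper-quartile factors in place of TMM the same threshold gave 502 higher and 356 lower, so the balance of the directions depended on the scaling. The median of all log2FC values was 0 and the median absolute log2FC was 0.15 (0.12 without replicate 1), where the median SE was 0.19. The genotype difference between untreated mutant and WT, which uses the same 4 untreated mutants, had a median absolute log2FC of 0.32 and called 4727 genes (30.4%). An absolute log2FC over 1 was seen in 394 genes for tamoxifen and in 1977 for genotype. For tamoxifen in WT, the median absolute log2FC was 0.16.

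The precision differed with the level of a gene. The 95% interval of the log2FC lay wholly between -1 and 1 for 11443 genes (73.7%), and for these a change of 2-fold or more was outside the interval. It was wider than 4-fold for 2079 genes. The median SE was 0.48 for genes with a mean log2 CPM below 0 and 0.12 for genes between 4 and 6, and the share of genes whose interval stayed within 2-fold rose from 17.6% to 95.1% between these levels. In 518 genes (3.33%) every treated library was above every untreated one, and in 369 (2.38%) every treated library was below.

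**Figure D2:**
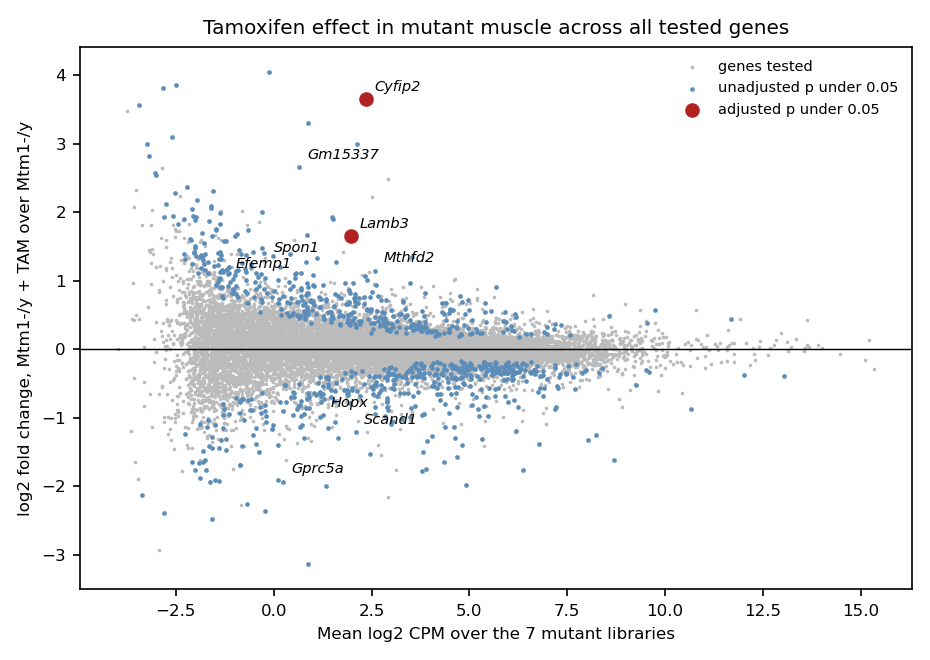
Log2 fold change of treated over untreated mutant muscle (vertical axis) against the mean log2 CPM over the 7 mutant libraries (horizontal axis), with a point for each of 15533 genes. Blue points have an unadjusted p under 0.05 and the 2 red points, *Cyfip2* at 3.65 and *Lamb3* at 1.65, an adjusted P value under 0.05, while the spread of grey points widens toward low levels.

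*Lamb3* encodes the beta-3 chain of laminin-332, a heterotrimer best known from the basement membrane of epithelia. It was at 1.96, 3.15, 1.94 and 2.62 CPM in the untreated mutants and at 6.25, 7.78 and 8.53 CPM in the treated ones. The groups did not overlap, and the lowest treated library was above the highest untreated one. The log2FC was 1.65 ± 0.21 (SE), a 3.13-fold rise, with an adjusted P value of 0.0132 by edgeR. Without replicate 1 it was 1.56 with an adjusted P value of 0.0254, and it stayed called. Over the refits that each left out 1 library, the log2FC was 1.55 to 1.79 and the adjusted P value 0.0108 to 0.114. In WT *Lamb3* was at 2.52 ± 0.453 CPM (SD, n = 4) without and 5.19 ± 0.999 CPM (SD, n = 4) with tamoxifen, a log2FC of 1.03 with an adjusted P value of 0.0381 by edgeR. The effect in mutants minus that in WT was 0.62 ± 0.29 (unadjusted p = 0.0486, adjusted P value 0.468), which was not called.

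*Cyfip2* encodes a subunit of the WAVE regulatory complex, which links Rac signalling to branching of actin filaments by the Arp2/3 complex. It was at 1.23, 2.78, 1.53 and 1.5 CPM untreated and at 18.4, 28.2 and 18.6 CPM treated, from 47 to 69 and from 347 to 1066 raw counts per library. The treated values were all far above the untreated ones. The log2FC was 3.65 ± 0.49 (SE), a fitted 12.6-fold rise, with an adjusted P value of 0.028 by edgeR. Without replicate 1 the log2FC was 3.52 and the adjusted P value 0.152, so the call was lost. Over the refits that each left out 1 library, the log2FC was 3.42 to 3.94 and the adjusted P value 0.055 to 0.17. The log2FC in WT was 2.88 ± 0.49 with an adjusted P value of 0.0296 by edgeR, from 1.00 ± 0.22 CPM to 7.42 ± 5.17 CPM (SD, n = 4 each), and the difference between the genotypes was 0.78 ± 0.68 (unadjusted p = 0.274). *Lamb3* and *Cyfip2* were not called between untreated mutant and WT (log2FC -0.08 and 0.79).

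The regions before RefSeq transcription starts of both genes are shown because these were the called genes and tamoxifen acts on a DNA-binding receptor. Both windows lie inside the gene spans of the GENCODE M21 annotation given below, and so not before the outermost start in that annotation. Each window is the 250 bases before a RefSeq start (GRCm38.p6), written 5′ to 3′ on the strand of the gene, at chr1:193301744-193301993 on the plus strand for *Lamb3* and at chr11:46312359-46312608 on the minus strand for *Cyfip2*. Capitals mark a match to GGTCA or to its reverse complement TGACC, the arms of the oestrogen response element.
Lamb3: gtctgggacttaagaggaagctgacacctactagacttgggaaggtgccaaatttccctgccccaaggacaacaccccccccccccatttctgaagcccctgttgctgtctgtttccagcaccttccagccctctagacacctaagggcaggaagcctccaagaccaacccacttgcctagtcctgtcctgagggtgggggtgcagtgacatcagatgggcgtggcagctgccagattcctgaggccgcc
Cyfip2: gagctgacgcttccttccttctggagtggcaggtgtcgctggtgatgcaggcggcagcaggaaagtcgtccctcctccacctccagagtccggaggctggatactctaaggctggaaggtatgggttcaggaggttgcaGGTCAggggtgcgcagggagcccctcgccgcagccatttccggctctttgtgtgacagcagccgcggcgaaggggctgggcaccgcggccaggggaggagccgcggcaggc
*Cyfip2* held 1 such match and the *Lamb3* window 0, as did the window of a second *Lamb3* start. Of 32851 RefSeq promoter windows of this length, 35.2% held a match on either strand, and 0.0639% (21 windows) held the whole element GGTCANNNTGACC, none of them at these genes. A match of this length is a description of the letters and not a binding site.

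In the annotation of GRCm38 (GENCODE M21), *Cyfip2* (ENSMUSG00000020340) spans chr11:46193850-46312859 on the minus strand. *Lamb3* (ENSMUSG00000026639) spans chr1:193207699-193343878 on the plus strand, a span that also covers *Hsd11b1*, *G0s2* and *Gm37691*. These had log2FC values of 0.19 ± 0.28, 0.50 ± 0.35 and 0.42 ± 0.22 (SE), none of them called. *Adam19*, next to *Cyfip2*, had a log2FC of 0.49 ± 0.37 (SE).

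The 8 further genes with the smallest p among those higher after tamoxifen, with no overlap between groups, missed the adjusted threshold. Their p-values and absent overlap were used to choose them, and their levels are given as a description. *Twnk*, the helicase of the mitochondrial DNA replisome, was at 23.1, 26.3, 25.8 and 26.0 CPM untreated and at 39.5, 44.2 and 41.2 CPM treated (log2FC 0.72 ± 0.12, adjusted P value 0.158). The gap between the groups was wider than the range within either. Its start overlaps that of *Mrpl43*, a mitochondrial ribosomal protein gene on the opposite strand, whose log2FC was 0.14 ± 0.09. *Gm15337*, an antisense transcript, was at 0.0785, 0.807, 0.953 and 1.34 CPM untreated and at 4.77, 5.16 and 5.29 CPM treated (log2FC 2.66 ± 0.46, adjusted P value 0.17). Untreated replicate 1 held 3 counts of it, and without that library the log2FC was 2.26 with an adjusted P value of 0.00634, which passed the threshold. It overlaps *Arhgap26* on the opposite strand (log2FC -0.90 ± 0.52), and as the counting may not have used strand, reads of the pair cannot be told apart with certainty.

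*Mthfd2*, a mitochondrial enzyme of folate one-carbon metabolism, was at 4.50, 3.63, 3.37 and 5.53 CPM untreated and at 10.5, 8.92 and 9.09 CPM treated (log2FC 1.15 ± 0.26, unadjusted p = 0.000463, adjusted P value 0.682). Every treated library was above every untreated one. A pair of matrix genes was also among them. *Spon1* (F-spondin) was at 1.15 to 2.64 CPM untreated and 3.60 to 6.37 CPM treated (log2FC 1.27 ± 0.30). *Efemp1* (fibulin-3) was at 0.837 to 1.52 and 2.23 to 3.34 CPM (log2FC 1.27 ± 0.32). The other 3 were *Tmem260* (0.67 ± 0.15), *Cmklr1*, the receptor for the adipokine chemerin (0.77 ± 0.18), and *Tmc7*, of the transmembrane channel-like family (0.90 ± 0.21). Without replicate 1 the log2FC of these 8 genes was between 0.66 and 2.26.

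The 10 genes with the smallest p among those lower after tamoxifen without overlap, at a mean log2 CPM of 0 or more, were weaker by p, and none was called (adjusted P values from 0.744 to 0.855). *Scand1*, a SCAN domain protein, was at 8.03, 9.48, 3.97 and 3.87 CPM untreated and at 2.70, 2.89 and 2.59 CPM treated (log2FC -1.21 ± 0.28). The untreated libraries lay in pairs, and the lower pair was still above the treated values. In WT its log2FC was 1.01. The difference of -2.22 ± 0.40 between the genotypes had an unadjusted p of 4.54e-05 and an adjusted P value of 0.176 by edgeR. No gene had a lower adjusted P value in that test. The unadjusted p of *Scand1* was not the smallest there, as that of *Jund* was 3.61e-05. *Hopx*, a homeodomain-only regulator of differentiation, was at 4.84, 2.46, 3.21 and 2.22 CPM untreated and 1.48 to 1.81 CPM treated (log2FC -0.97 ± 0.25). Without replicate 1, its highest library, the log2FC was -0.69. *Gprc5a*, an orphan receptor inducible by retinoic acid, was at 4.89, 1.25, 1.97 and 0.806 CPM untreated and 0.689, 0.556 and 0.529 CPM treated. Its log2FC of -1.94 ± 0.56 became -1.19 without replicate 1, its highest library.

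The remaining 7 had smaller differences, of at most 0.58 on the log2 scale. *Cuedc1*, which encodes a CUE domain protein, was at 113, 155, 163 and 149 CPM untreated and 110, 110 and 101 CPM treated. Here replicate 1 was the untreated library nearest to the treated ones, and the log2FC of -0.43 ± 0.12 became -0.54 without it (adjusted P value 0.134). *Cuedc1* also fell in WT after tamoxifen, by 0.55 on the log2 scale (adjusted P value 0.0381 by edgeR). The log2FC was -0.33 ± 0.09 for the phospholipid scramblase *Ano6* and -0.42 ± 0.12 for *Rad54l2*, a helicase that interacts with the androgen receptor. It was -0.58 ± 0.17 for the calmodulin-binding transcription activator *Camta1* and -0.47 ± 0.14 for the zinc finger factor *Vezf1*. *Trir* (-0.42 ± 0.12) and *Asrgl1*, an asparaginase (-0.36 ± 0.11), complete the group. Replicate 1 was the highest untreated library for *Camta1*, *Vezf1*, *Rad54l2* and *Trir*. Without it their log2FC was -0.38, -0.36, -0.33 and -0.34. That of *Ano6* was then -0.35 and that of *Asrgl1* -0.33.

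**Figure D3:**
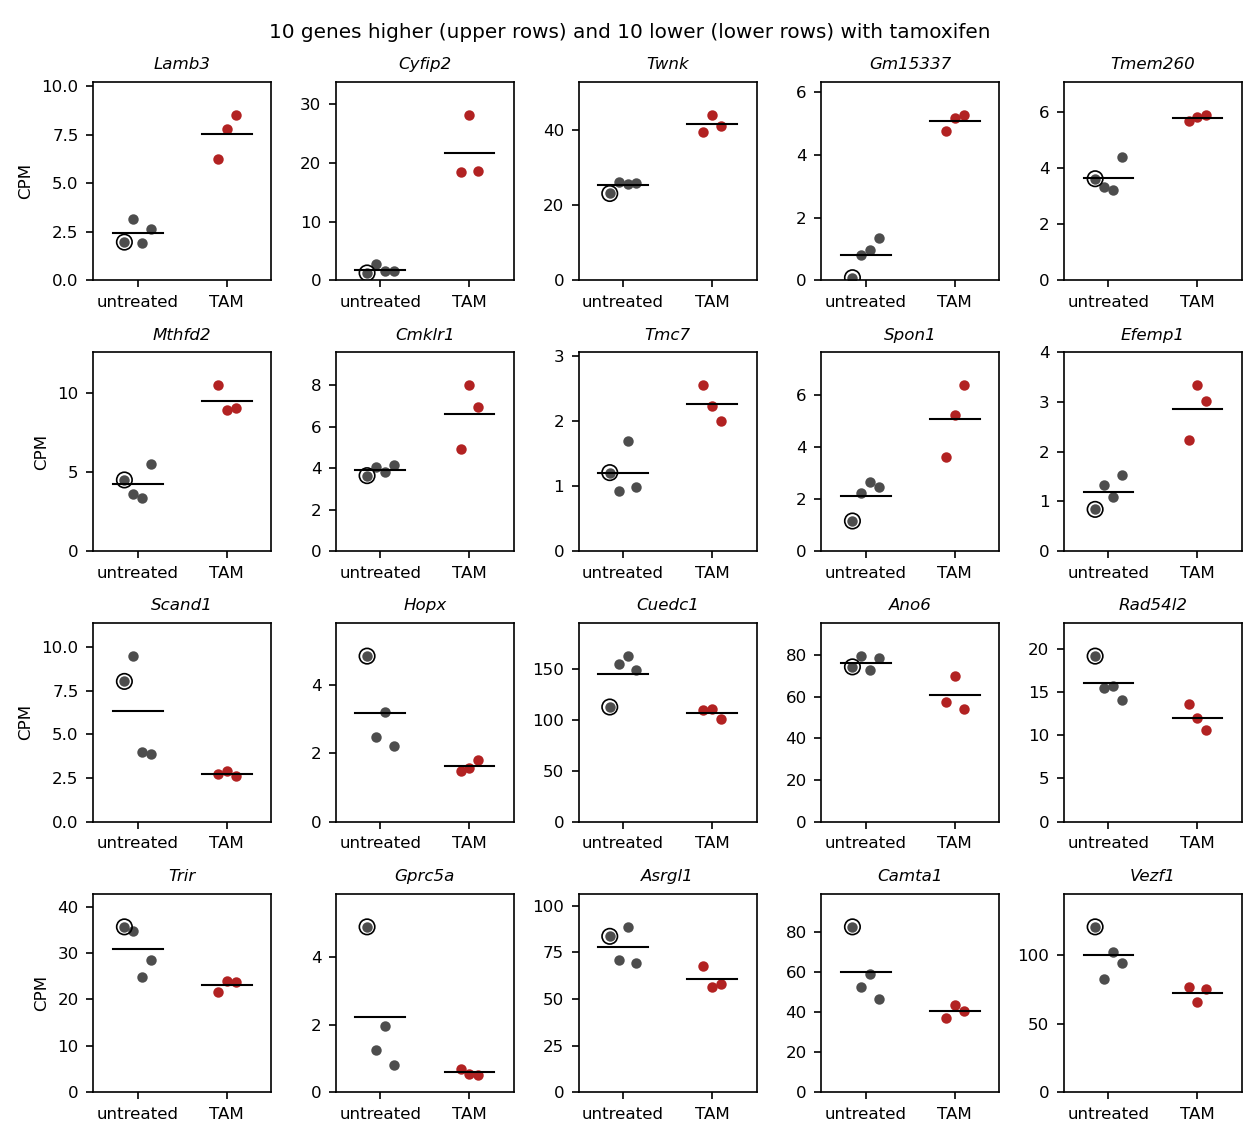
CPM (vertical axis, from 0, a scale for each gene) of the 10 higher and 10 lower genes with the smallest p in 4 untreated (grey) and 3 treated (red) mutant mice, with bars at the group means and a ring around untreated replicate 1. The groups are widest apart in *Cyfip2* and *Gm15337*, and in *Gprc5a*, *Hopx* and *Camta1* the ringed library is the highest.

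The same genes were set against WT, whose 8 libraries share no animal with the mutant comparison. Of the 10 higher genes, 9 were above 0 in WT, 6 with an unadjusted p under 0.05 and 2 of them called. Over all 15533 genes, 48 were called in WT. The share of all genes with an unadjusted p under 0.05 in WT is not given here, so counts at that threshold have no reference. Of the 10 lower genes, 6 were below 0 in WT, 1 with an unadjusted p under 0.05, while *Scand1* and *Trir* were higher there with an unadjusted p under 0.05. Over the 861 genes, 354 (41.1%) had the same sign in WT, against 43.2% of all genes tested. Of those higher in the mutant, 51.1% were above 0 in WT, and of those lower, 32% were below 0. Among genes with an unadjusted p under 0.05 in both genotypes, 86 had the same sign and 83 the opposite one. The test of the difference between the genotypes called 0 genes by edgeR and 0 by limma-voom, while DESeq2 called 74, and 1650 genes (10.6%) had an unadjusted p under 0.05 by edgeR.

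Leaving out untreated replicate 1 kept the count of called genes at 2 but not the genes, which were then *Lamb3* and *Gm15337*, 0.0131% of 15286. An unadjusted p under 0.05 was reached by 563 genes (3.68%), 317 higher and 246 lower, and 379 genes passed in both fits, all in the same direction. The sign turned in 3231 genes (21.1%), of which 1 was among the 861, and the log2FC moved by over 0.5 in 364 genes. With 3 against 3 libraries, 781 genes (5.03%) were higher and 627 (4.04%) lower without overlap.

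In the genes that moved most in each direction, replicate 1 was the highest or the lowest untreated library. *Irs2*, which couples the insulin receptor to its signalling chain, was at 145 CPM in replicate 1, at 13.1, 18.4 and 12.9 CPM in the other untreated libraries and at 15.5, 12.2 and 17.8 CPM in the treated ones. Replicate 1 was the only library outside that range, and the log2FC of -1.64 became 0.04 without it. *Inmt*, an indole and thioether methyltransferase, was at 52.3 CPM in replicate 1 against 3.29 to 5.66 CPM in the rest of its group and 3.60 to 15.4 CPM treated, and went from -0.67 to 1.18. *Igfbp2*, which binds insulin-like growth factors, was at 17.8 CPM in replicate 1 and 1.30 to 3.02 CPM in the rest, and went from -0.22 to 1.30. The opposite shift was largest for *Ostn* (musclin, -0.19 to -0.59), *Comp*, a matrix protein of cartilage and tendon (-1.03 to -1.44), and *Iigp1*, an interferon-inducible GTPase (-0.94 to -1.34). For these genes replicate 1 was the lowest untreated library, at 0.105, 0.131 and 1.31 CPM. Replicate 4 in *Comp* (23.6 CPM) and replicate 3 in *Iigp1* (65.0 CPM) exceeded the other untreated libraries, at up to 2.62 and 8.22 CPM. Both stayed in the fit without replicate 1. When they were left out in its place, the log2FC was 1.57 for *Comp* and 0.88 for *Iigp1*.

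**Figure D4:**
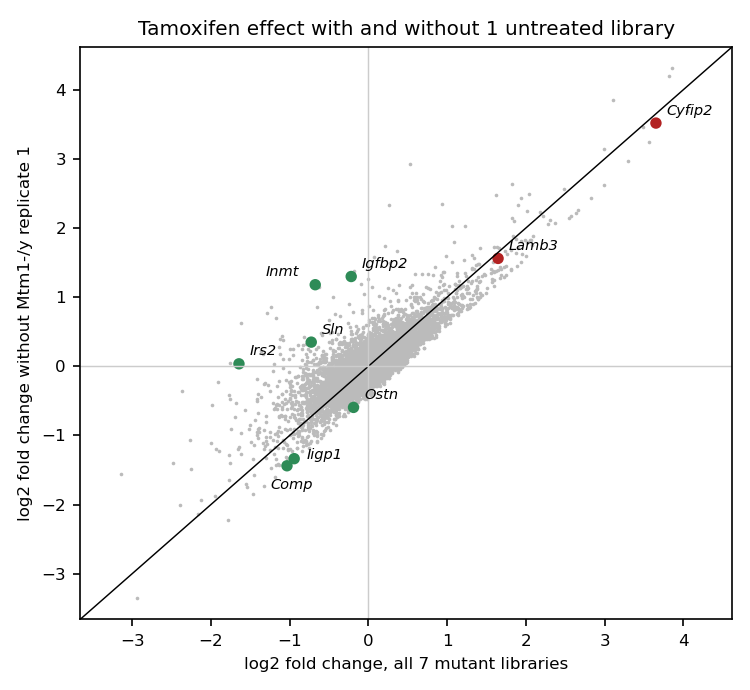
Log2 fold change of treated over untreated mutant muscle with all 7 libraries (horizontal axis) and without untreated replicate 1 (vertical axis), with a point for each of 15286 genes and the line of equal values. The red points *Lamb3* and *Cyfip2* lie near the line, and *Irs2*, *Inmt*, *Igfbp2* and *Sln* lie above it.

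Among 16 tested oestrogen receptor genes and targets, 8 were above and 8 below 0, with a median log2FC of 0.03, and none was called. Over all genes tested, 49.4% were above 0. The receptor *Esr1* was at 11.4 to 20.6 CPM untreated and 16.4 to 18.6 CPM treated (log2FC 0.06 ± 0.15). *Greb1*, a textbook oestrogen target, was at 0.759, 1.09, 1.37 and 0.761 CPM untreated and at 1.64, 1.83 and 1.96 CPM treated. The groups did not overlap (log2FC 0.88 ± 0.27, unadjusted p = 0.00471, adjusted P value 0.855), also without replicate 1 (0.78). The progesterone receptor gene *Pgr*, under the count filter, had 0 counts in each untreated library and 0, 7 and 5 in the treated ones (two-sided exact permutation p = 0.286, where 3 against 4 libraries cannot go below 0.0571). A count of 0 allows up to 3 counts, for counting error only. The coactivator *Ncoa2* (-0.23 ± 0.08) and the membrane receptor *Gper1* (-0.51 ± 0.23) had an unadjusted p under 0.05. Of 24 genes of cholesterol synthesis and uptake, 12 were above and 12 below 0 (median 0.01), and *Pmvk* alone had an unadjusted p under 0.05 (0.33 ± 0.12).

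Genes tied to the disease, namely the phosphoinositide and triad lists, had log2FC values between -0.37 and 0.20, and none was called. Of 21 myotubularins and phosphoinositide kinases, 17 were below 0 with a median of -0.16 (-0.09 without replicate 1), and *Mtmr10*, a catalytically inactive family member, had an unadjusted p under 0.05 (-0.29 ± 0.12). *Dnm2*, the membrane-cutting GTPase dynamin 2, was at 71.2 to 82.6 CPM untreated and 67.6 to 75.7 CPM treated (-0.10 ± 0.08). *Bin1*, the membrane-bending amphiphysin 2, was at 573 CPM in replicate 1, at 801 to 948 CPM in the other untreated and at 784 to 945 CPM in the treated libraries (0.12 ± 0.14, and -0.01 without replicate 1). Of 18 excitation-contraction coupling genes, 11 were below 0 (median -0.09). The calcium release channel *Ryr1* was at 5147, 4115, 5055 and 4126 CPM untreated and at 3965, 3428 and 3280 CPM treated, without overlap (-0.37 ± 0.15, unadjusted p = 0.0239). The calcium channel subunit *Cacng1* (-0.33 ± 0.15) and the store-operated channel *Orai1* (-0.22 ± 0.10) also had an unadjusted p under 0.05. Over all genes, 2.9% were lower at this threshold, and 3.68% passed it in either direction without replicate 1. Without replicate 1 the log2FC was -0.32 for *Ryr1* (unadjusted p = 0.0535), -0.20 for *Cacng1* (0.136) and -0.27 for *Orai1* (0.0201), so that 1 of the 3 kept it.

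The slow fibre genes had a median log2FC of 0.79 over 13 members (12 above 0, 0.68 without replicate 1), against 0 over all genes, and none was called. The mean log2 CPM of the list was 3.68 to 3.88 untreated and 3.83, 5.04 and 4.64 treated. Treated replicate 1 thus lay within the untreated range, and the rise rested on treated replicates 2 and 3. In WT the median of the list was 1.04. The slow myosin *Myh7* was at 4.66, 4.19, 4.58 and 3.09 CPM untreated and at 4.61, 26.0 and 37.7 CPM treated. Treated replicates 2 and 3 were high while treated replicate 1 lay within the untreated range, and the log2FC of 2.48 had an SE of 1.51. *Myl2*, the slow regulatory light chain, was at 2.90 to 3.79 CPM untreated and at 4.29, 25.5 and 14.3 CPM treated. Treated replicates 2 and 3 were again the highest, and unlike in *Myh7* treated replicate 1 also lay above the untreated libraries. *Myl3* alone had an unadjusted p under 0.05 (1.34 ± 0.50). Without treated replicate 2 the median of the list was 0.34. Of 17 fast fibre genes, 10 were above 0 (median 0.06, and -0.10 without replicate 1). *Actn3*, the fast-fibre Z-disc actinin, was at 9558, 8731, 10484 and 9000 CPM untreated and at 7865, 6895 and 6858 CPM treated, without overlap (-0.39 ± 0.13, unadjusted p = 0.00714). *Myh4* had a log2FC of -0.29 ± 0.18, *Myh1* of 0.43 ± 0.24 and *Myh2* of 0.57 ± 0.53. Among the 10 fibre markers (median 0.04), myoglobin *Mb* was at 2610 to 3120 CPM untreated and 3590 to 4210 CPM treated (0.44 ± 0.18, unadjusted p = 0.0292).

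Of 19 developmental and regeneration genes, 10 were above 0 (median 0.09), and the satellite cell regulator *Pax7* had an unadjusted p under 0.05 (0.53 ± 0.24). Embryonic myosin *Myh3* was at 41.1, 18.5, 29.8 and 15 CPM untreated and 35.7, 53.0 and 35.5 CPM treated (0.67 ± 0.36). Without replicate 1, its highest untreated library, the groups did not overlap and the log2FC was 0.98. In the whole list 4 members were then higher with an unadjusted p under 0.05 and 5 without overlap, and the median was 0.17. Over all genes, 317 of 15286 were then higher at this threshold, and 5.03% were higher without overlap. Of 18 genes of denervation and the neuromuscular junction, 13 were below 0 (median -0.14, and -0.03 without replicate 1). None had an unadjusted p under 0.05, while without replicate 1 it was reached by 1 higher and 3 lower members. Free of overlap were then 1 higher and 2 lower members. Over all genes, 3.68% had an unadjusted p under 0.05 in that fit. Without overlap, 5.03% of all genes were higher and 4.04% lower. *Sln*, sarcolipin, an inhibitor of the calcium pump, was at 1750 CPM in replicate 1, at 361, 303 and 304 CPM in the other untreated and at 389, 392 and 452 CPM in the treated libraries. Its log2FC turned from -0.72 ± 0.52 to 0.35 (unadjusted p = 0.0386) without replicate 1. The growth inhibitor myostatin, *Mstn*, was at 6.94 to 21.3 CPM untreated and 7.44 to 13.3 CPM treated (-0.32 ± 0.45).

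Muscle atrophy genes were lower by median, and this rested on replicate 1. Of 21 members, 19 were below 0 with a median of -0.30, but the median without that library was -0.02. The number with an unadjusted p under 0.05, all lower, went from 5 to 1, where 2.9% of all genes were lower at this threshold and 3.68% passed it in either direction without replicate 1. *Ddit4*, an inhibitor of mTORC1, was at 323, 177, 143 and 74.9 CPM untreated and at 67.8, 71.5 and 65.7 CPM treated, without overlap (-1.39 ± 0.44, unadjusted p = 0.00792, and -0.94 without replicate 1). *Foxo1*, a driver of the atrophy programme, was at 125, 50.9, 69.2 and 20.3 CPM untreated and at 25.8, 28.9 and 25.8 CPM treated (-1.31 ± 0.46). Untreated replicate 4 was below the treated libraries. *Cebpd* (-1.14 ± 0.43), *Cebpb* (-0.94 ± 0.36) and *Klf15* (-0.98 ± 0.41) were the other transcription factors with an unadjusted p under 0.05. Without replicate 1 the log2FC was -0.80 for *Foxo1*, -0.74 for *Cebpd*, -0.70 for *Cebpb* and -0.36 for *Klf15*, with unadjusted p-values of 0.0647, 0.0799, 0.071 and 0.178 by edgeR. The ubiquitin ligase *Fbxo32* was at 1062, 433, 250 and 390 CPM untreated and at 609, 395 and 302 CPM treated, and went from -0.30 ± 0.47 to 0.28. In WT, whose controls are other animals, the median of the list was 0.53.

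Of 23 immediate early genes, which respond to stimuli within minutes, 20 were below 0 with a median of -0.36 (-0.29 without replicate 1). Of the members, 7 had an unadjusted p under 0.05, all lower, against 2.9% of all genes, and 2 without replicate 1. The median in WT was 0.52. *Jund*, a subunit of AP-1, was at 32.3, 29.7, 19.5 and 16.3 CPM untreated and at 12.1, 16.7 and 15 CPM treated (-0.74 ± 0.23). In WT the log2FC of *Jund* was 1.08 (adjusted P value 0.0532 by edgeR). The difference between the genotypes had an unadjusted p of 3.61e-05 by edgeR, in a test that called no gene. The phosphatase *Dusp1* was at 105, 46.9, 88.1 and 64.0 CPM untreated and at 38.1, 51.9 and 51.5 CPM treated (-0.69 ± 0.23). The others were *Btg2*, *Klf2*, *Maff*, *Klf4* and *Nr4a2*, between -1.10 and -0.57. In *Klf4* replicate 1 was at 43.3 CPM and the other 6 libraries at 9.49 to 15.7 CPM. The circadian clock list had 13 of 18 genes below 0 (median -0.23, and -0.02 without replicate 1), and 0 with an unadjusted p under 0.05. The clock genes *Per1* (64.3 to 432 CPM) and *Dbp* (18.2 to 125 CPM) ranged widely over the 7 libraries, and no source used here states the time of day of sampling.

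The integrated stress response, through which the factor ATF4 raises amino acid supply, had 5 of 12 members with an unadjusted p under 0.05, all higher, and 5 with no overlap between groups. Over all genes these shares were 2.65% and 3.33%. Without replicate 1, 4 members had an unadjusted p under 0.05 and 5 no overlap, and the median was 0.26 with and 0.25 without it. Beside *Mthfd2*, asparagine synthetase *Asns* was at 4.16, 3.71, 3.85 and 4.48 CPM untreated and at 6.52, 7.63 and 5.09 CPM treated (0.66 ± 0.20, unadjusted p = 0.00424). *Trib3* was at 1.05, 0.766, 0.922 and 0.896 CPM untreated and at 1.22, 1.69 and 1.16 CPM treated (0.58 ± 0.25). *Atf5* (0.26 ± 0.11) and *Ddit3* (0.26 ± 0.12) were the others. *Atf4* itself had a log2FC of -0.08 ± 0.14 and *Chac1*, a further target, of -0.25 ± 0.53. No member was called in the mutants. In WT the log2FC was 0.10 for *Mthfd2*, 0.01 for *Asns*, -0.08 for *Trib3* and -0.41 for *Ddit3*, while *Atf5* was called there at 0.69 (adjusted P value 0.00942 by edgeR). The difference between genotypes for *Mthfd2* was 1.04 ± 0.36 (unadjusted p = 0.0101, adjusted P value 0.384).

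No fatty acid oxidation gene was called. Of 26 members, 16 were above 0 with a median of 0.16 (0.15 without replicate 1). Without overlap 8 were higher, against 3.33% of all genes, and 10 without replicate 1, against 5.03%, but only *Acaa2* had an unadjusted p under 0.05 among them (0.35 ± 0.15). The fatty acid binding protein *Fabp3* was at 41.2 to 59.9 CPM untreated and 66.8 to 79.1 CPM treated (0.53 ± 0.26), and the dienoyl-CoA reductase *Decr1* at 49.9 to 99 and 109 to 118 CPM (0.43 ± 0.21). The coactivator *Ppargc1a* was lower (-0.93 ± 0.36, unadjusted p = 0.022), with 59.1 CPM in replicate 1 and 14.7 to 33.3 CPM in the other untreated libraries, and had -0.44 without replicate 1. Of 26 oxidative phosphorylation genes, 23 were above 0 (median 0.14, and 0.08 without replicate 1), with 0 free of overlap. Cytochrome c, *Cycs*, had an unadjusted p under 0.05 (0.56 ± 0.23).

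Matrix genes varied widely between animals of a group, with a pooled SD of 0.85 for the mean log2 CPM of the list. Of 22 collagens and interstitial matrix genes, 20 were above 0 with a median of 0.41 (0.12 without replicate 1), and 0 were free of overlap or had an unadjusted p under 0.05. *Col1a1* was at 16.5, 268, 162 and 436 CPM untreated and at 139, 432 and 186 CPM treated. Replicate 1 was the lowest of the 7, and the log2FC went from 0.20 ± 0.84 to -0.19. Of 24 laminins and basement membrane genes, 11 were above 0 (median -0.01), and beside *Lamb3* the chains *Lamc3* (1.12 ± 0.46, under 1 CPM in all libraries) and *Lamb2* (-0.28 ± 0.12) had an unadjusted p under 0.05. The partners of *Lamb3* in laminin-332 include *Lama3*, which had a log2FC of -0.33 ± 0.36. Of 25 WAVE and Arp2/3 genes, 10 were above 0 (median -0.03), and *Cyfip2* alone had an unadjusted p under 0.05.

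Of 18 lysosome genes, 9 were above 0 (median -0.01), and the cholesterol transporter *Npc1* had an unadjusted p under 0.05 (-0.44 ± 0.20), but not without replicate 1 (-0.17, unadjusted p = 0.217). Of 17 interferon and antigen presentation genes, 15 were above 0 (median 0.27, and 0.04 without replicate 1), with *Ifit3* at 0.418 to 1.13 CPM untreated and 1.01 to 2.59 CPM treated (1.20 ± 0.35). *B2m* had a log2FC of -0.02 ± 0.23, which turned to 0.01 with upper-quartile factors. Of 12 cell cycle genes, 10 were above 0 (median 0.25) and 0 had an unadjusted p under 0.05. Treated replicate 2 was the highest library for *Mki67* (2.46 CPM, against 0.0262 to 1.06 CPM in the other 6), and the median was -0.06 without it. In WT the median of the cell cycle list was -1.21.

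Markers of other cells in the muscle were measured beside these lists. In bulk tissue, fewer cells of a type and less RNA per cell cannot be told apart. Of 19 macrophage markers, 17 were above 0 with a median of 0.47 (0.30 without replicate 1), and *Itgam* (1.42 ± 0.40), *Cd163* (0.75 ± 0.28) and *Adgre1* (1.12 ± 0.50) had an unadjusted p under 0.05. Over all genes, 2.65% were higher at this threshold. Without replicate 1, *Itgam* and *Cd163* kept it and *Adgre1* did not (0.83, unadjusted p = 0.094 by edgeR). The mean log2 CPM of the markers was 0.68, 1.90, 0.71 and 1.82 untreated and 1.62, 2.23 and 1.87 treated, so untreated replicates 2 and 4 lay within the treated range. Their summed level was 59.9 to 125 CPM untreated and 98.9 to 156 CPM treated. Adipocyte markers had a median of 1.12 over 10 members (1.37 without replicate 1), 7 of them above 0, and only *Retn* had an unadjusted p under 0.05. Their summed level was 391 to 1550 CPM untreated and 578 to 623 CPM treated, and the defining markers *Adipoq* (0.134 to 0.654 and 0.636 to 2.89 CPM) and *Plin1* (0.0448 to 0.524 and 0.848 to 1.77 CPM) were low in all 7 libraries. A further marker, *Fabp4*, was at 141 to 208 CPM untreated and 143 to 188 CPM treated (-0.06 ± 0.15). *Ucp1*, the uncoupling protein of brown fat, was chosen after its values were seen, at 2.48, 1.17, 0.89 and 2.98 CPM untreated and 13.7, 12.7 and 19.4 CPM treated (2.99 ± 0.82, unadjusted p = 0.00303, adjusted P value 0.855). The part of adipocyte RNA in the differences of *Ucp1* and *Cmklr1* was not tested.

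All 7 smooth muscle and pericyte markers were below 0 (median -0.30, and -0.29 without replicate 1). Smooth muscle myosin *Myh11* was at 24.7 to 42.3 CPM untreated and 20.4 to 27.2 CPM treated (-0.51 ± 0.16, unadjusted p = 0.00483), and smooth muscle actin *Acta2* at 46.1 to 63.4 and 32.4 to 40.9 CPM, without overlap (-0.57 ± 0.20, unadjusted p = 0.0117). Over all genes, 2.9% were lower at an unadjusted p under 0.05 and 2.38% were lower without overlap. Without replicate 1, 3 of the 7 markers were lower at this threshold, where 3.68% of all genes passed it in either direction. Free of overlap were then 2 lower markers, against 4.04% of all genes. The summed level of the 7 markers was 385 to 484 CPM untreated and 340 to 435 CPM treated. Of 7 fibro-adipogenic progenitor markers, all were above 0 (median 0.35, and 0.11 without replicate 1), with *Pdgfra* at 0.57 ± 0.21. Of 12 endothelial markers 9 were below 0 (median -0.05), of 9 Schwann cell markers 7 (median -0.36), and of 6 tendon markers 4 (median -0.13, and -0.38 without replicate 1). All 5 erythroid markers were above 0 (median 0.69, and 0.38 without replicate 1), with summed levels of 14.9 CPM in replicate 1, 54.6 to 66.6 CPM in the other untreated and 46.7 to 115 CPM in the treated libraries. All 5 B cell and plasma cell markers were above 0 (median 0.35, and 0.13 without replicate 1), both tested neutrophil markers below (median -1, and -0.2 without replicate 1), and both tested keratinocyte markers near 0 (median -0.01). The T cell markers were all under the count filter. In the fit with all libraries, apart from the genes named, none of these markers had an unadjusted p under 0.05.

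**Figure D5:**
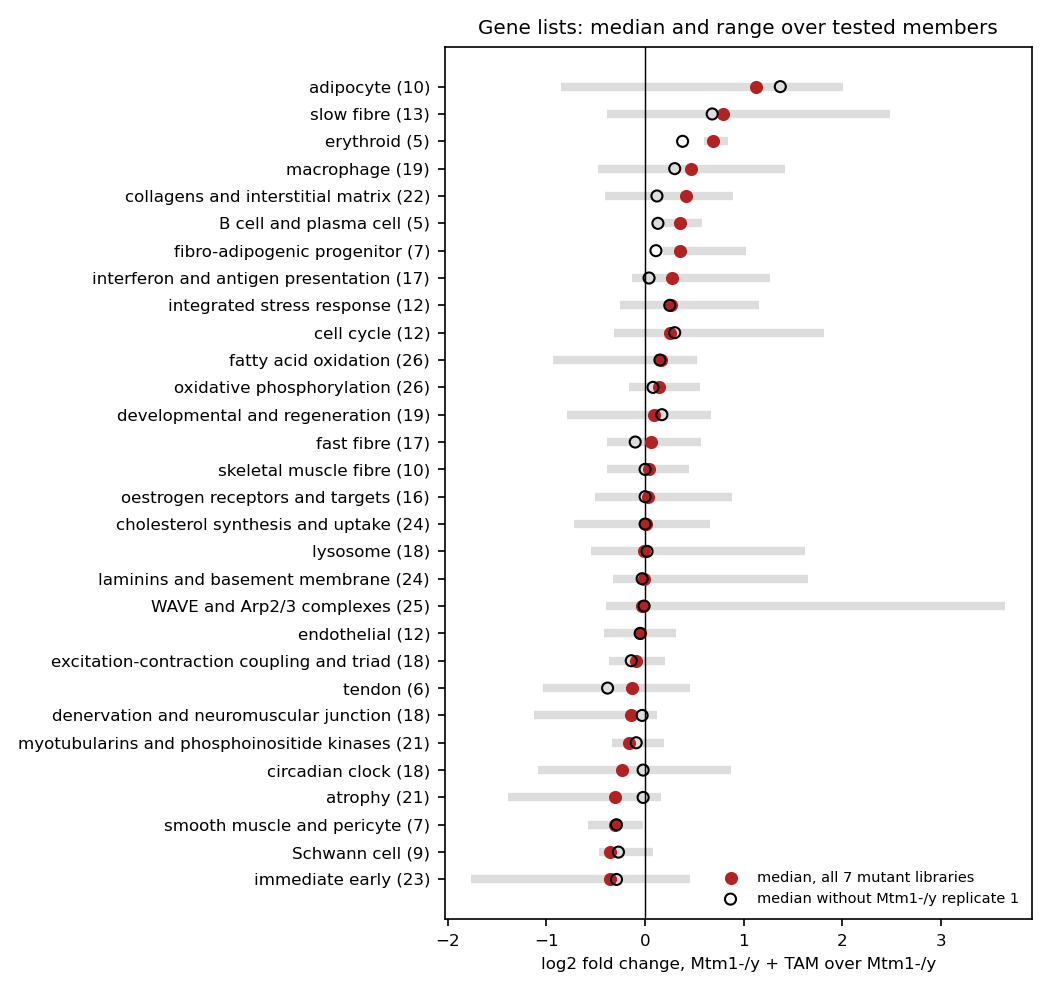
Median log2 fold change of treated over untreated mutant muscle for each gene list with at least 5 tested members (number in parentheses), with all 7 libraries (red) and without untreated replicate 1 (open circles), and grey bars over the range of the members. The adipocyte and slow fibre lists have the highest medians (1.12 and 0.79), and the atrophy and circadian clock medians move to -0.02 without replicate 1.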

How the data were processed

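The deposited table holds raw counts per gene, with no normalization by the authors. The tools in the submitters' notes, without roles, were STAR 2.5.3a, HTSeq 0.6.1p1, Bowtie2 2.2.8 and cutadapt 1.10, with the build GRCm38, and the labels name a stranded mRNA kit. Annotation, strand setting and read filters were not given in the sources used. All 30672 identifiers matched GENCODE M21. Genes were kept by filterByExpr (minimum count 10). Counts were scaled by TMM and fitted in edgeR 4.0.16 (R 4.3.3) with a mean for each of 4 groups over all 15 libraries (glmQLFit, robust). Contrasts were tested by glmQLFTest, with Benjamini-Hochberg adjustment over all genes tested and a threshold of 0.05. Errors of log2FC are SE of the fit, and log2 CPM had a prior count of 2. *Pgr* was compared by exact permutation with the doubled smaller tail.

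Named were genes called, the 10 higher and 10 lower genes of smallest p without overlap whose mean log2 CPM was 0 or more, the 3 genes moving most in each direction without replicate 1 (mean log2 CPM 1 or more), 12 fixed genes, and in lists the members highest and lowest. List members with an unadjusted p under 0.05, adipocyte genes and overlapping genes were added after their values were seen. The members and lists were chosen with earlier results of these data known. Alternatives were RLE and upper-quartile factors, no and a stricter filter, DESeq2 1.42.0, limma-voom (limma 3.58.1) without and with quality weights, the mutant libraries alone, a replicate block and leaving out each library. Some items of the lists are not reported here by name.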

Additional observations from a re-analysis of the deposited data

Results flagged for a closer look

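A library far from the others of the untreated mutant group was looked for in each named gene and list, by the gap of the highest or lowest library to its neighbour as a share of the range over the 4 libraries (limit, Dixon's 95% critical value). Chance flags about 1 in 20 groups. Of 107 named genes, 13 passed, 10 of them with replicate 1 apart, and of 32 lists 1 passed. The named genes include those chosen because replicate 1 moved them, so their count is a description and not one to set against chance. Replicate 1 was highest for *Sln* (0.96), *Irs2* (0.958), *Inmt* (0.952), *Igfbp2* (0.896), *Wasf2* (0.888), *Igf2* (0.88), *Lss* (0.878) and *Nr4a3* (0.858). It was lowest for *Twnk* (0.844), *Decr1* (0.831) and the mean log2 CPM of the erythroid markers (0.906). Replicate 4 was lowest for *Gper1* (0.906) and highest for *Comp* (0.894), and replicate 3 was highest for *Iigp1* (0.891). Over all tested genes 1261 (8.12%) passed, 863 with replicate 1 apart and 115, 183 and 100 with replicates 2, 3 and 4. Replicate 1 was the highest library in 616 of its 863.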

How the results depend on the processing

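The number of called genes was 2 with RLE and upper-quartile factors, a stricter filter and limma-voom. It was 1 without a count filter (*Lamb3*), 4 by DESeq2 (*Gm15337* and *Twnk* added), 5 with quality weights (also *Ucp1*) and 1 from the mutant libraries alone (*Cyfip2*). It was 0 to 2 on leaving out each library, with 0 calls without untreated replicate 3 and without treated replicate 2 or 3 (972, 615 and 646 genes with an unadjusted p under 0.05). Without untreated replicate 2 and without treated replicate 1 *Lamb3* alone was called, and without untreated replicate 4 *Lamb3* and *Slc7a8* were. The genes with an unadjusted p under 0.05 numbered 528 in the mutant libraries alone and 563 to 1391 on leaving out each library. Genes without overlap numbered 768 to 1131 higher and 614 to 965 lower then, and 635 lower without the filter, by fewer libraries or more genes. The difference between genotypes called 2 genes without the filter, 74 by DESeq2, 6 with quality weights and 0 to 7 on leaving out each library (3 without untreated mutant replicate 4, 7 without WT + TAM replicate 1).

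Whether replicate numbers pair the samples cannot be told from 3 correlations of deviations (0.2, 0.31 and -0.07). Of the 3 treated libraries, 2 correlated most with the untreated library of their own number. With the replicate block 2 genes were called and 964 had an unadjusted p under 0.05, and the log2FC turned for *Comp* (0.56) and *B2m* (0.03). List medians moved for the adipocyte markers, to 0.48 with the stricter filter, 2.05 with quality weights and 0.47 in the mutant libraries alone, and for the myotubularins to -0.06 with quality weights. On leaving out each library they ranged from -0.06 to 0.41 (cell cycle), -0.05 to 0.09 (cholesterol), -0.19 to -0.09 (myotubularins), 0.34 to 1.04 (slow fibre) and -0.48 to -0.21 (smooth muscle). The widest range was that of the tendon markers (-1.15 to 1.12), and the medians of the neutrophil markers (-1.59 to -0.2), collagens (0.02 to 0.66), interferon genes (0.04 to 0.57), developmental genes (-0.04 to 0.18) and fast fibre genes (-0.10 to 0.13) also varied. Signs turned with upper-quartile factors for *B2m* (0.01) and with limma-voom for *Igfbp2* (0.17), *Ostn* (0.79), *Comp* (0.63), *Iigp1* (0.36), *Mmp14* (0.03) and *B2m* (0.02). With quality weights they turned for *Inmt* (1.04), *Irs2* (0.01), *Igfbp2* (1.13), *Iigp1* (0.08), *Bin1* (-0.02), *Esr1* (-0.01), *Sln* (0.24), *Mstn* (0.07), *Fbxo32* (0.09), *Col1a1* (-0.41), *Igf2* (0.19), *Myf5* (0.22), *Cav3* (-0.04), *Mtmr7* (0.08), *Pik3c2a* (0.18), *Egr2* (-0.07), *Ciart* (0.76), *Cox6a2* (0.01) and *Lama3* (0.36).

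Ranges of log2FC that crossed 0 on leaving out each library were, for genes of metabolism and signalling, -1.09 to 1.18 (*Inmt*), -1.96 to 0.04 (*Irs2*), -0.63 to 1.30 (*Igfbp2*), -1.05 to 0.17 (*Igf2*), -0.52 to 0.03 (*Pik3c2a*), -0.01 to 0.15 (*Mtm1*), -0.01 to 0.21 (*Bin1*), -0.08 to 0.17 (*Esr1*) and -0.16 to 0.02 (*Atf4*). For muscle genes they were -0.98 to 0.35 (*Sln*), -0.62 to 0.11 (*Mstn*), -0.70 to 0.34 (*Ostn*), -0.57 to 0.15 (*Myf5*), -0.16 to 0.16 (*Atp2a2*), -0.11 to 0.35 (*Runx1*), -0.12 to 0.30 (*Gadd45a*), -0.61 to 0.28 (*Fbxo32*) and -0.07 to 0.24 (*Fbxo30*). For the others they were -0.44 to 0.76 (*Col1a1*), -0.11 to 1.39 (*Tnc*), -0.25 to 0.07 (*Mmp14*), -0.58 to 0.03 (*Lama3*), -2.15 to 1.57 (*Comp*), -1.34 to 0.88 (*Iigp1*), -0.19 to 0.09 (*B2m*), -0.83 to 0.07 (*Gpnmb*), -0.17 to 1.60 (*Top2a*), -2.33 to 0.26 (*Ciart*), -0.21 to 1.28 (*Dbp*) and -0.34 to 0.55 (*Per3*). The cause was not tested. Depth limits genes below a mean log2 CPM of 0, where few intervals exclude a 2-fold change.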
